A study of Mus musculus with 41 samples.

Results

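Cultured mouse germline stem cells that carried an empty expression vector were followed over the first hours after treatment with 4-hydroxytamoxifen. The libraries were chosen by their labels alone. They are the 6 iSLAM-seq libraries of the empty-vector arm, called Ctrl, at 0.5, 1 and 2 h, set against the 2 Ctrl libraries at 0 h. These 8 libraries belong to 24 iSLAM-seq libraries in a series of 41 samples.

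The series asked which genes the X-linked homeobox factor RHOX10 regulates in early male germ cells. iSLAM-seq reads RNA after a transcription factor has been switched on and newly made RNA has been chemically labelled. A factor fused to ERT2, a modified oestrogen receptor domain, enters the nucleus when 4-hydroxytamoxifen binds it. The Ctrl arm holds ERT2 and mCherry without RHOX10.

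All cells came from testes of C57BL/6 mice at postnatal day 0 to 1 and were grown in a serum-free culture medium. In both arms the endogenous Rhox10 transcript had been lowered with a short hairpin RNA from a lentivirus, and the infected cells had been sorted by green fluorescence. Both arms received 4-hydroxytamoxifen. Each vector was sampled at 0, 0.5, 1, 2, 4 and 8 h, with 2 biological replicates at each time. The labels do not give the labelling schedule, or what the 0 h cells had received. Whether the counts cover every read or just the converted ones is also not stated, so the values below may be total or newly made RNA. The p-values rest on the spread between replicates, which the labels call biological. For each gene that spread was pooled over all times of both arms, the 0.5 h pair included.

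Germline stem cells are the culture counterpart of spermatogonial stem cells, and they depend on GDNF and FGF signalling through RET and FGF receptors. These receptors drive the ERK kinase cascade. ERK activity switches on immediate-early genes, among them FOS and JUN of the AP-1 family, the EGR zinc-finger factors and the NR4A nuclear receptors, without new protein synthesis. It also switches on its own brakes, the dual-specificity phosphatases (DUSP) and the Sprouty proteins.

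The 8 libraries held 9751514 to 11795351 counts, and 20642 genes passed the filter on low counts over all 24 libraries. Levels are given as CPM, counts relative to the scaled library size. The reads came from a 3' end kit, so CPM is not divided by gene length, and no level is compared between genes. The summed CPM of 10 germ cell markers lay between 2313 and 2762 in the 8 libraries and none was at 0. Rhox10 (ENSMUSG00000053909, GRCm38 chrX:38066475-38071691, plus strand) had 0.202 to 2.42 CPM in the 8 libraries, too few counts to tell a change. All 13 protein-coding genes of the mitochondrial genome were at 0 in every library.

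The pair of libraries at 0.5 h disagreed. Genes with a mean of at least 20 CPM in a pair were compared between its 2 libraries. At 0.5 h, 477 of 7865 genes (6.06%) differed by more than 2-fold, whereas the other 11 pairs of the series had 0 to 2 such genes each. Chi-square divided by its degrees of freedom was 26.64 for this pair and 2.615 to 4.567 for the others. Of the 477 genes, 471 were lower and 6 were higher in replicate 2. Replicate 2 was also the highest or lowest of all 24 libraries for 48.3% of 7968 genes, against 2.91% to 13.7% for each other library.

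By the size of the ratio, Ctnnd1 and Apba3 differed most. Ctnnd1, which encodes the cadherin partner p120-catenin, had 162.9 CPM in replicate 1 and 5.945 in replicate 2, and 101 to 153.9 in the other early Ctrl libraries. Apba3, an adaptor protein gene, had 66.2 and 2.255 CPM. In replicate 1 Ctnnd1 was just above the range of the other early Ctrl libraries, and Apba3 was within it. The next in order were Ccn2, Pmpcb, Ccl11, Trip10, Ldb1 and Gtse1. In replicate 1 each of these was above its range in the other early Ctrl libraries. Trip10 had 46.72 CPM there, against at most 30.62. A pick by ratio also favours genes with high values in replicate 1. The genes highest in replicate 2 were Gchfr, Myl9, D9Wsu149, Mroh1 and Mvd, at log2 ratios of 1.03 to 1.23. Several members of the gene groups below were among the affected genes. Nr4a1 had 139 CPM in replicate 1 and 31.4 in replicate 2, and Dusp6 had 374 and 132. Hsp90b1, an endoplasmic reticulum chaperone gene, had 1160 and 512 CPM, and the amino acid transporter gene Slc7a5 had 375 and 96.5.

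The difference between the 2 libraries went with base composition. Across 7959 genes, the log2 ratio of replicate 2 to replicate 1 correlated with the GC content of the last 150 transcribed bases at r = 0.337, while the other 11 pairs gave -0.2093 to 0.1527. These points share their libraries and no p is given. Genes over 2-fold lower in replicate 2 had a mean GC of 34.601% (470 genes), and those with a log2 ratio within 0.5 had 39.548% (6031 genes). The part of base composition in the disagreement was not tested.

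**Figure D1:**
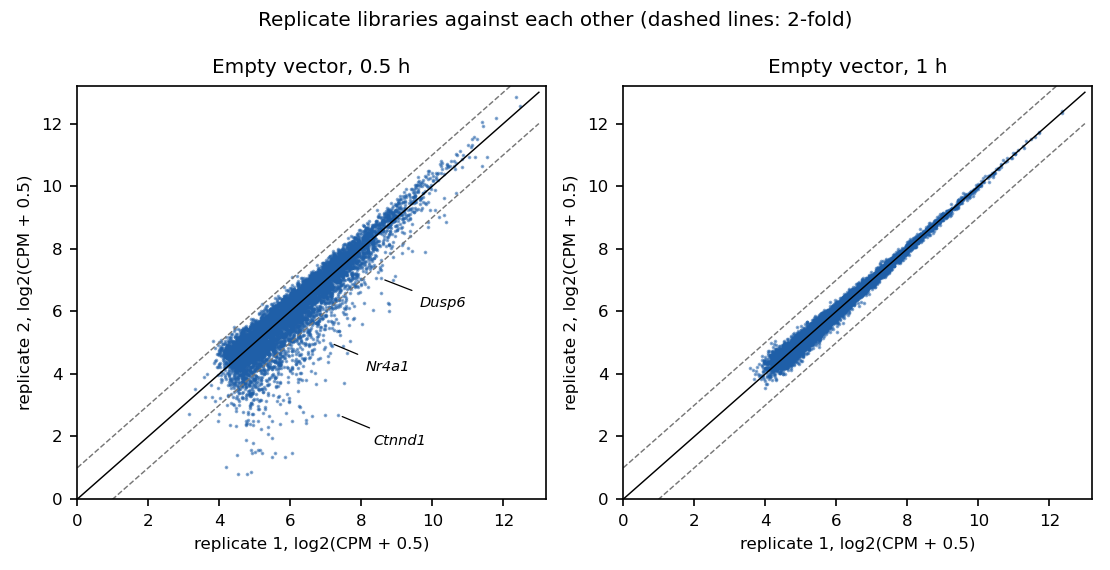
Each point is 1 gene, placed by its log2(CPM + 0.5) in replicate 1 (x axis) and replicate 2 (y axis). The Ctrl pair at 0.5 h is on the left and that at 1 h on the right. Both panels hold the genes with a mean of at least 20 CPM in either of the 2 pairs. Dashed lines mark a 2-fold difference. Among genes with a mean of at least 20 CPM in the pair itself, 477 differ by more than that at 0.5 h and 0 at 1 h. Nearly all of the 477 lie below, and Ctnnd1, Nr4a1 and Dusp6 are labelled.

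More genes were called at 2 h than at 0.5 or 1 h. A gene was called where edgeR's quasi-likelihood test gave a Benjamini-Hochberg adjusted p under 0.05. At 0.5 h 5 genes were called, 3 higher and 2 lower than at 0 h (0.0242% of those tested, 0.0145% higher and 0.00969% lower). At 1 h 56 were called, 48 higher and 8 lower (0.271%, or 0.233% and 0.0388%). At 2 h 298 were called, 225 higher and 73 lower (1.44%). These comparisons share the 2 libraries at 0 h. The median log2 fold change over all tested genes was 0.00268 at 0.5 h, 0.00274 at 1 h and 0.00294 at 2 h. Of the called genes 1, 18 and 74 changed by at least 2-fold. The order of the counts did not hold throughout. With no filter on low counts 730, 105 and 400 genes were called at 0.5, 1 and 2 h, and 2658, 1642 and 2648 genes of the filtered set had an unadjusted p under 0.05. The 0.5 h count rests on the discordant pair, with 4284 calls without its replicate 1.

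Because all groups share 1 estimate of the spread for each gene, the 0.5 h pair also bears on the other times. With both Ctrl libraries at 0.5 h left out of the fit, 313 genes were called at 1 h (201 higher and 112 lower, 1.53% of 20510, or 0.98% and 0.546%) and 1176 at 2 h (658 higher and 518 lower, 5.73%, or 3.21% and 2.53%). All 56 and all 298 earlier calls were among them. With only replicate 2 left out, 19 genes were called at 0.5 h (14 higher and 5 lower, 0.0857%, or 0.0631% and 0.0225%). This alternative was chosen with the discordant pair known.

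**Figure D2:**
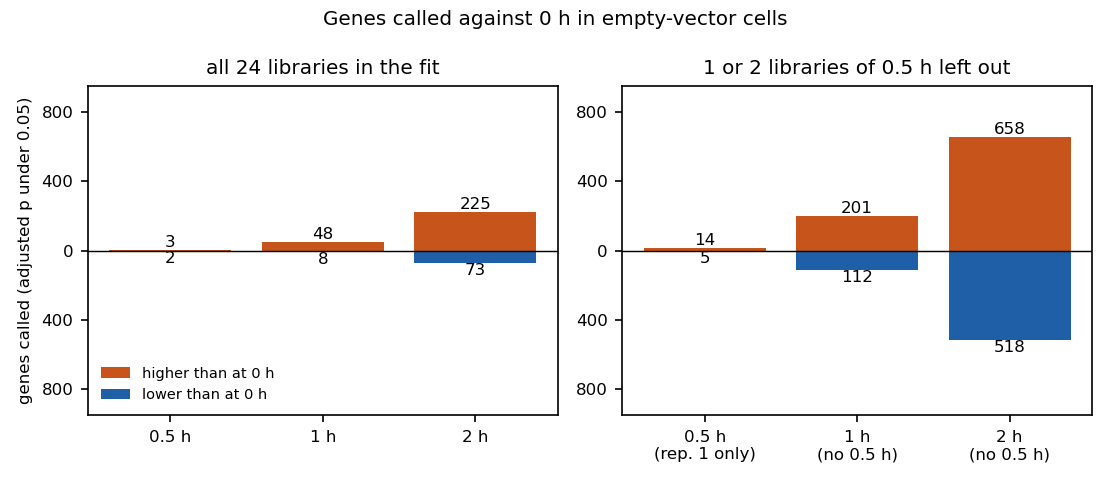
Bars give the number of genes called higher (up) or lower (down) than at 0 h in Ctrl cells at 0.5, 1 and 2 h, for the fit with all 24 libraries (left) and with Ctrl 0.5 h libraries left out (right; replicate 2 alone for the 0.5 h bar). The 2 h bars reach 225 and 73 genes on the left and 658 and 518 on the right.

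Fos, the AP-1 subunit used here as a marker of acute stimulation, was not called higher at any early time and fell by 2 h. It lies on GRCm38 chr12:85473890-85477273, plus strand (ENSMUSG00000021250). Its level was 190 and 192 CPM at 0 h, then 190 and 149 at 0.5 h, then 155 and 139 at 1 h, then 75.8 and 83.7 at 2 h. Both 2 h libraries lay far below all 6 others. The log2 fold change at 2 h was -1.26 (SE 0.0985, edgeR adjusted p 6.96e-08), and the call held with each of the 8 libraries left out in turn (highest adjusted p 1.33e-05). At 1 h the value was -0.38 (adjusted p 0.131), which became a call with the 0.5 h libraries left out (adjusted p 0.000584).

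The AP-1 list held 10 genes, of which 9 were tested, and the untested member was Fosl1. At 2 h 0 members were called higher and 1 lower, Fos itself, against 1.09% and 0.354% of all genes. The list median was -0.061 on the log2 scale against 0.0029 for all genes. Jun, the usual partner of FOS, had 88.7 and 92.2 CPM at 0 h, then 73.8 and 70.0 at 2 h, a log2 value of -0.33 (adjusted p 0.0863). Fosb had 66.2 and 64.8 CPM at 0 h, then 50.5 and 49.2 at 2 h, at -0.39 (adjusted p 0.111). For both genes the 2 h libraries stood below the 0 h libraries. Libraries of the 2 times did not overlap for 50.9% of 11926 genes averaging at least 5 CPM. Both genes were called with the 0.5 h libraries left out (adjusted p 0.00207 and 0.0025), where 2.53% of all genes were called lower. Junb had 246 and 211 CPM at 0 h, then 274 and 308 at 1 h, and 241 in each library at 2 h. Atf3, a stress-responsive member, had a log2 value of -0.34 at 2 h (adjusted p 0.3), and Jund had 0.18 (adjusted p 0.39).

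Egr1, the other marker of acute stimulation, stayed near its starting level. It had 620 and 614 CPM at 0 h, then 606 and 528 at 0.5 h, then 700 and 703 at 1 h, then 624 and 621 at 2 h. The 1 h libraries were the highest and the 2 h libraries sat beside those of 0 h. The log2 value at 1 h was 0.19 (SE 0.0589, adjusted p 0.314), which became a call with the 0.5 h libraries left out (adjusted p 0.012). At 2 h it was 0.013 (adjusted p 0.966).

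Egr3, a close relative of Egr1, rose. It had 126 and 140 CPM at 0 h, then 143 and 159 at 0.5 h, then 220 and 236 at 1 h, then 250 and 240 at 2 h. All 4 libraries of 1 and 2 h exceeded all 4 of 0 and 0.5 h, a split whose share over all genes was not computed. Egr3 (chr14:70077203-70082614) rose by 0.78 on the log2 scale at 1 h (SE 0.0845, adjusted p 4.9e-05) and by 0.88 at 2 h (SE 0.0846, adjusted p 9.62e-07). Egr4 went from 282 and 290 CPM at 0 h to 356 and 368 at 2 h, a log2 rise of 0.34 (adjusted p 0.0141). Its call was lost in 4 of the 8 fits that left out 1 library (highest adjusted p 0.197). Egr2 had 54.4 and 48.4 CPM at 0 h, then 69.2 and 76.9 at 2 h (adjusted p 0.131).

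The list of EGR, NR4A and other immediate-early genes had 24 members, all tested. At 1 h 1 was called higher (Egr3) and 0 lower, against a background of 0.233% higher. At 2 h 3 were called higher (Egr3, Egr4 and Rhob) and 4 lower (Nr4a3, Ier2, Ier3 and Zfp36). The background at 2 h was 1.09% higher and 0.354% lower, and the list's median was 0.047. With the 0.5 h libraries left out, 7 were called higher and 5 lower at 2 h, against 3.21% and 2.53% of all genes.

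Of the lower members, Zfp36, whose product degrades AU-rich transcripts, had 94.9 and 89.7 CPM at 0 h, then 108 and 62.7 at 0.5 h, then 84.9 and 83.0 at 1 h, then 53 and 54.8 at 2 h. Its 2 h libraries were the lowest of the 8, and the log2 change was -0.77 (SE 0.152, adjusted p 0.00733). Ier2 had 80.4 and 69.7 CPM at 0 h, then 44.3 and 46.9 at 2 h, a change of -0.72 (adjusted p 0.00191). Nr4a3, an orphan nuclear receptor gene, had 15.4 and 18.4 CPM at 0 h, then 9.33 and 8.99 at 2 h, at -0.88 (adjusted p 0.041). The calls of Zfp36, Ier2 and Nr4a3 were lost in 3, 2 and 4 of the 8 fits without 1 library, with highest adjusted p of 0.0919, 0.0573 and 0.314. Nr4a1 had 139 and 133 CPM at 0 h, then 126 and 150 at 2 h, with no call. Myc had 1.64 to 8.28 CPM over the 8 libraries and was not called, and at that depth a modest change could be missed.

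The upstream sequences of Fos and Zfp36, which fell, and of Dusp5, which rose (below), are shown because all 3 are classical targets of growth-factor signalling. Each line gives the 250 bases before the RefSeq start site (GRCm38.p6), 5' to 3' on the gene's strand. The windows are chr12:85473640-85473889 (Fos, plus), chr7:28379229-28379478 (Zfp36, minus) and chr19:53528895-53529144 (Dusp5, plus). Capitals mark matches to the cAMP response element core TGACG, read on both strands and therefore also as CGTCA, or to the CArG box that serum response factor binds.
Fos: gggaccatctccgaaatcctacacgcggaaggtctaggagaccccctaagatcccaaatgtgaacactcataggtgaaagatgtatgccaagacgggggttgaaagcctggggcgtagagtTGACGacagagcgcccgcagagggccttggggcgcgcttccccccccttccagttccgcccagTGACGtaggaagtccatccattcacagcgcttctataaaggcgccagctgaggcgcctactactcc
Zfp36: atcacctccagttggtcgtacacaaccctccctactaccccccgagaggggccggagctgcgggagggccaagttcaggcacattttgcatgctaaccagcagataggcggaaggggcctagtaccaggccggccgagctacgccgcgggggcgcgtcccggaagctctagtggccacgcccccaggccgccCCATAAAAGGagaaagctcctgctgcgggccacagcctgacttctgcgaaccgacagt
Dusp5: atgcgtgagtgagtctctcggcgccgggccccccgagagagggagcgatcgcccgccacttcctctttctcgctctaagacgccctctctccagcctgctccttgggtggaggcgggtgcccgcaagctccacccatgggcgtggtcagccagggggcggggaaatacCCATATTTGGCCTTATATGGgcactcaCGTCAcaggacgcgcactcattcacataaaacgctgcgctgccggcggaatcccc
The Fos window held 2 core sites, starting at bases -129 and -66 from the start site, and 0 CArG boxes. The Zfp36 window held 1 CArG box at -58. The Dusp5 window held 2 adjacent CArG boxes at -82 and -72 and 1 core site at -55. Among 32851 RefSeq windows of the same length, 17.765% held a core site and 1.467% a CArG box. Some genes have several start sites. Core sites were in at least 1 window of 5 of 9 AP-1 list genes, 10 of 17 EGR and NR4A list genes and 5 of 13 ERK feedback genes that had a window, against 19.785% of all 27025 genes. A match is a description of the letters, and no match says only that these letters are not in this window. Windows with these motifs belonged to genes that rose and to genes that fell.

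Some ERK feedback genes rose and none was called lower. Of 15 members, 1 was called higher at 1 h (Dusp5) and 3 at 2 h (Dusp2, Dusp5 and Spry2), with 0 called lower at either time. Over all genes 0.233% were called higher at 1 h and 1.09% at 2 h, and 0.0388% and 0.354% lower. The median of the list at 2 h was 0.33 on the log2 scale. Dusp2, a nuclear phosphatase of ERK, had 41.3 and 31.7 CPM at 0 h, then 33.2 and 21.7 at 0.5 h, then 55.6 and 58.4 at 1 h, then 101 and 104 at 2 h. Both 2 h libraries were above all others, and the change at 2 h was 1.49 (SE 0.154, adjusted p 3.32e-06). Dusp5, also a nuclear ERK phosphatase, had 93.7 and 82.6 CPM at 0 h, then 122 and 121 at 1 h, then 146 and 152 at 2 h. It rose by 0.46 at 1 h (adjusted p 0.0164) and by 0.76 at 2 h (SE 0.0872, adjusted p 1.45e-05).

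The remaining feedback genes were less uniform. Spry2, a Sprouty inhibitor of receptor tyrosine kinase signalling, had 80.2 and 69.8 CPM at 0 h, then 107 and 111 at 2 h, a rise of 0.54 (adjusted p 0.0143). That call was lost in 3 of the 8 fits without 1 library (highest adjusted p 0.272). Dusp6, the cytoplasmic ERK phosphatase, had 343 and 331 CPM at 0 h, then 492 and 532 at 2 h, at 0.60 (SE 0.225, adjusted p 0.227). Its wide error came with the 0.5 h pair, and with that pair left out Dusp6 was called (adjusted p 5.56e-14). Dusp1, a phosphatase of stress kinases, had 168 and 173 CPM at 0 h, then 120 and 129 at 2 h, a log2 value of -0.45 (adjusted p 0.055). With the 0.5 h libraries left out, 5 members were called higher and 1 lower (Dusp1) at 2 h, against 3.21% and 2.53% of all genes.

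Of 16 genes that GDNF and FGF are known to control in these cells, 0 were called at 1 h and 3 at 2 h, all higher (Nefm, Foxc2 and Lhx1), with a median of 0.29. The background was 0.233% higher at 1 h and 1.09% higher at 2 h. Leaving out the 0.5 h libraries gave 5 higher and 1 lower at 2 h, against 3.21% and 2.53% of all genes in that fit. Nefm, a neurofilament gene, had 229 and 230 CPM at 0 h, then 336 and 316 at 2 h, a rise of 0.51 (SE 0.0728, adjusted p 0.000264). Foxc2 and Lhx1, both transcription factor genes, rose by 0.46 (adjusted p 0.0141) and 0.41 (adjusted p 0.0316), and their calls were lost in 4 and 6 of the 8 fits without 1 library (highest adjusted p 0.232 and 0.371). Etv5, the best known ERK-dependent factor of these cells, had 243 and 266 CPM at 0 h, then 222 and 212 at 2 h (-0.23, adjusted p 0.475). It was the 1 member called lower with the 0.5 h libraries left out (adjusted p 0.0154). Ret, the GDNF co-receptor gene, had 253 and 261 CPM at 0 h, then 278 and 273 at 2 h (adjusted p 0.665).

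Of 21 spermatogonial identity and differentiation genes, 2 were called at 2 h, both higher, against 1.09% of all genes, and the median was 0.05. Nanos3, an RNA-binding protein gene of early germ cells, had 21.7 and 17.4 CPM at 0 h, then 33.5 and 30.8 at 2 h, a rise of 0.71 (adjusted p 0.0404). Dmrt1, a regulator of spermatogonial fate, had 426 and 395 CPM at 0 h, then 487 and 515 at 2 h, a rise of 0.29 (adjusted p 0.0491). Both calls were lost in 6 of the 8 fits without 1 library (highest adjusted p 0.406 and 0.429), and the Dmrt1 call was also lost under other scalings (adjusted p 0.0549 and 0.0684).

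Among genes picked by size of change at 1 h, Ndrg1, Fam84a and Gfod1 rose. Ndrg1, a stress-responsive gene on chr15:66929318-66969640, had 28.1 and 27.4 CPM at 0 h, then 30.9 and 23.9 at 0.5 h, then 66.1 and 64.5 at 1 h, then 79.3 and 83.3 at 2 h. The 4 libraries of 1 and 2 h were all far above the 4 earlier ones, though the pick itself required no overlap between 1 h and 0 h. The change was 1.23 at 1 h (SE 0.122, adjusted p 1.73e-05) and 1.55 at 2 h (SE 0.122, adjusted p 6.96e-08). Fam84a went from 7.81 and 5.86 CPM at 0 h to 16.5 in each library at 1 h, then 28.2 and 27.0 at 2 h, a change of 2.01 at 2 h (adjusted p 1.59e-07). Gfod1 had 3.2 and 3.91 CPM at 0 h, then 9.13 and 12.3 at 1 h, a rise of 1.59 (adjusted p 0.00129). Dleu2, a long noncoding transcript, had 10.7 and 8.89 CPM at 0 h, then 20.1 and 23.5 at 1 h, a rise of 1.15 (adjusted p 0.00594). S100z, at 1.33, was also called at 1 h (adjusted p 0.0206). Gfod1 and S100z were under 5 CPM at 0 h and met the 5 CPM rule only through their 1 h libraries.

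At 2 h the largest rise by that rule was in Kcnk10, which encodes a background potassium channel. It had 1.60 and 1.16 CPM at 0 h, then 2.52 and 1.54 at 0.5 h, then 6.36 and 5.03 at 1 h, then 10.4 and 10.9 at 2 h, a log2 change of 2.95 (SE 0.245, adjusted p 1.27e-07). Both 2 h libraries lay above both 1 h libraries, which lay above the 4 earlier ones. The rule required no overlap between 2 h and 0 h, so that separation was set by the pick. The other large rises were Olfr373 (2.65), Snap25 (2.37), Has2 (2.13), S100z (2.10) and Fam84a. Has2 makes hyaluronan and Snap25 is a vesicle fusion protein gene. All 6 had 0 h levels under 8 CPM. Kcnk10, Olfr373, Snap25, Has2 and S100z were under 5 CPM at 0 h. They met the rule's mean of 5 CPM only through their 2 h libraries.

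Several abundant genes were singled out after their values were seen, because their p-values at 2 h were among the smallest. Inhba, the activin A subunit gene (chr13:16011851-16031621), had 93.1 and 90.9 CPM at 0 h, then 98.1 and 85.4 at 0.5 h, then 160 and 144 at 1 h, then 221 and 264 at 2 h. It was flat at 0.5 h and then rose at each time, by 0.72 at 1 h (SE 0.0946, adjusted p 0.000601) and by 1.40 at 2 h (SE 0.0949, adjusted p 1.11e-08). Slc20a1, a phosphate transporter gene, went from 292 and 306 CPM at 0 h to 544 and 532 at 2 h, a rise of 0.85 (adjusted p 1.27e-07). Klf7, a Kruppel-like factor gene, went from 109 and 105 CPM to 195 in each 2 h library (0.86, adjusted p 2.53e-07).

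Genes for secreted and surface proteins were in that set. Plaur, the urokinase receptor gene, had 11.1 and 10 CPM at 0 h, then 28.9 and 34.8 at 2 h (log2 rise 1.59, adjusted p 3.07e-06). Il11, a cytokine gene of the IL-6 family, had 8.26 and 7.20 CPM at 0 h, then 10.4 and 9.27 at 1 h, then 21.0 and 19.2 at 2 h (1.38, adjusted p 2.01e-06). Tnc, the extracellular matrix gene tenascin C, rose by 0.64 (adjusted p 1.4e-05). The transcription factor gene Nfatc2 rose by 0.99 (adjusted p 1.18e-05) and Trib1, a pseudokinase gene, by 0.74 (adjusted p 1.45e-05). These were also chosen after their values were seen. The calls of Inhba, Slc20a1, Klf7, Plaur, Il11, Tnc, Nfatc2 and Trib1 held with each of the 8 libraries left out.

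Of 17 BMP and TGF-beta targets, 3 were called higher at 2 h, Msx1 and Skil among them, and 0 lower. Over all genes 1.09% were called higher and 0.354% lower. With the 0.5 h libraries left out, 5 were called higher and 1 lower (Id3), against 3.21% and 2.53% of all genes. Msx1, a homeobox gene, rose by 0.96 (adjusted p 0.00138, and 0.0726 without replicate 2 of 2 h). Skil, a SMAD corepressor gene, rose by 0.31 (adjusted p 0.0262), a call lost in 6 of the 8 fits without 1 library (highest adjusted p 0.391).

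The stress lists held few calls, and differences between the lists were not tested. Of 15 NRF2 antioxidant genes, 2 were called higher at both 1 and 2 h, Srxn1 and Sqstm1, and 0 lower, against 0.233% of all genes called higher at 1 h and 1.09% at 2 h. In the fit without the 0.5 h libraries, 4 were called higher and 1 lower at 2 h. Srxn1, sulfiredoxin, had 193 and 184 CPM at 0 h, then 183 and 179 at 0.5 h, then 244 and 230 at 1 h, then 295 and 293 at 2 h (0.64 at 2 h, SE 0.0585, adjusted p 3.91e-07). The 4 libraries of 1 and 2 h lay above the 4 earlier ones. Sqstm1, the p62 autophagy adaptor gene, rose by 0.35 at 1 h (adjusted p 0.04) and 0.49 at 2 h (adjusted p 0.000399). Of 17 heat-shock genes, 0 were called at 0.5, 1 or 2 h, against 0.0242%, 0.271% and 1.44% of all genes. The median at 2 h was -0.14. The Hsp90aa1 call in the mean of the 3 times (0.27, adjusted p 0.048) was lost in 6 of the 8 fits without 1 library (highest adjusted p 0.439). With the 0.5 h libraries left out, 7 heat-shock genes were called lower at 2 h, among them Hspa1a and Dnajb1, and 1 higher (Hsp90aa1), against 2.53% and 3.21% of all genes in that fit.

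None of 20 unfolded protein response genes and none of 20 p53 targets was called at 1 or 2 h. These counts are close to the shares over all genes, 0.271% at 1 h and 1.44% at 2 h. Hspa5, the main endoplasmic reticulum chaperone gene, had 1230 and 1300 CPM at 0 h, then 1390 and 1310 at 2 h (adjusted p 0.572). Cdkn1a, the p53-dependent cell cycle inhibitor gene, had 557 and 563 CPM at 0 h, then 605 and 580 at 2 h (adjusted p 0.546). Mdm2, another p53 target, had 544 and 557 CPM and then 603 and 574 (adjusted p 0.579). The median of the p53 list at 2 h was -0.032. With the 0.5 h libraries left out, 1 p53 target (Pmaip1) was called higher at 2 h. In that fit 2 unfolded protein response genes were called higher and 3 lower, against 3.21% and 2.53% of all genes.

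Of 28 interferon-stimulated genes, 0 were called higher and 1 lower at 2 h, against 1.09% and 0.354% of all genes. It was Ifit3, which fell by 0.55 on the log2 scale (adjusted p 0.00853, lost in 4 of the 8 fits without 1 library, highest adjusted p 0.141). Of 15 NF-kB early targets, 0 were called higher and 1 lower, the chemokine gene Cxcl2. It had 19.0 and 17.8 CPM at 0 h, then 7.05 and 9.41 at 2 h, a change of -1.15 (adjusted p 0.0235), with the call lost in 4 of the 8 fits without 1 library (highest adjusted p 0.295). In the fit without the 0.5 h libraries, 2 NF-kB targets were called higher at 2 h (Nfkbie and Relb) and 2 lower (Cxcl1 and Cxcl2). There 1 interferon gene was called higher (Rsad2) and 1 lower (Ifit3). Over all genes in that fit 3.21% were called higher and 2.53% lower.

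Each of 3 metabolic and clock lists had 1 or 2 calls at 2 h, against 1.09% of all genes called higher. At 1 h 0.233% of all genes were called higher. Insig1, a brake on sterol synthesis, was the 1 of 28 sterol genes called at 1 h (0.61, adjusted p 0.0164) and at 2 h (0.52, adjusted p 0.0164). The 1 h call of Insig1 was lost in 4 of the 8 fits without 1 library (highest adjusted p 0.416). Slc2a1, the glucose transporter gene GLUT1, was the 1 of 18 hypoxia and glycolysis genes called at 2 h (0.70, adjusted p 0.0147), lost in 4 of the 8 fits (highest adjusted p 0.192). Of 16 circadian and glucocorticoid-responsive genes, 2 were called higher at 1 and at 2 h, Nr1d2 and Klf9. Nr1d2, the nuclear receptor REV-ERB beta, had 86.6 and 103 CPM at 0 h, then 103 and 116 at 0.5 h, then 145 and 146 at 1 h, then 156 and 159 at 2 h (0.73 at 2 h, adjusted p 0.000135). Klf9 had 229 and 239 CPM at 0 h, then 350 and 345 at 1 h, then 365 and 355 at 2 h (0.62 at 2 h, adjusted p 0.00154). Leaving out the 0.5 h libraries gave calls for 3 sterol, 2 hypoxia and 3 circadian genes at 2 h, all higher, against 3.21% of all genes called higher.

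A pair of nuclear noncoding RNAs rose. Neat1, the scaffold RNA of paraspeckles, had 109 and 115 CPM at 0 h, then 97.3 and 130 at 0.5 h, then 168 and 206 at 1 h, then 253 and 245 at 2 h, a rise of 0.74 at 1 h (adjusted p 0.00102) and 1.15 at 2 h (SE 0.103, adjusted p 3.16e-07). Malat1, its genomic neighbour and a nuclear speckle RNA, had 2430 and 2390 CPM at 0 h, then 3180 and 3290 at 2 h (0.43, adjusted p 2.87e-05). Pnisr, which encodes a splicing-related protein, rose by 0.52 (adjusted p 2.52e-05). These 3 were singled out after their values were seen. Of 21 cyclin L, CLK kinase and SR factor genes, 2 were called higher at 2 h (Luc7l3 and Srsf11) and 0 lower, against 1.09% of all genes called higher, with a median of 0.065. Without the 0.5 h libraries, 4 were called higher and 1 lower at 2 h, against 3.21% and 2.53% of all genes. Luc7l3 rose by 0.33 (adjusted p 0.00161) and Srsf11 by 0.31 (adjusted p 0.0149), calls lost in 2 and 4 of the 8 fits without 1 library (highest adjusted p 0.0923 and 0.237).

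Of 24 cell cycle genes, 0 were called higher and 2 lower at 2 h, against 1.09% and 0.354% of all genes. Plk1, a mitotic kinase gene, had 145 and 162 CPM at 0 h, then 145 and 157 at 0.5 h, then 106 and 115 at 1 h, then 111 and 105 at 2 h, a change of -0.47 at 1 h (adjusted p 0.0164) and -0.51 at 2 h (adjusted p 0.00228). Ccne1, cyclin E1, fell by 0.50 on the log2 scale at 2 h (adjusted p 0.0427). These 2 h calls were lost in 2 and 4 of the 8 fits without 1 library (highest adjusted p 0.0799 and 0.338). Of 30 ribosomal protein genes, 1 was called at 2 h, Rpl23 (0.43, adjusted p 0.0143, lost in 4 of the 8 fits, highest adjusted p 0.187), and the median was 0.025. Without the 0.5 h libraries, 2 cell cycle genes were called higher and 3 lower at 2 h, and 5 ribosomal protein genes higher and 4 lower, against 3.21% and 2.53% of all genes.

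**Figure D3:**
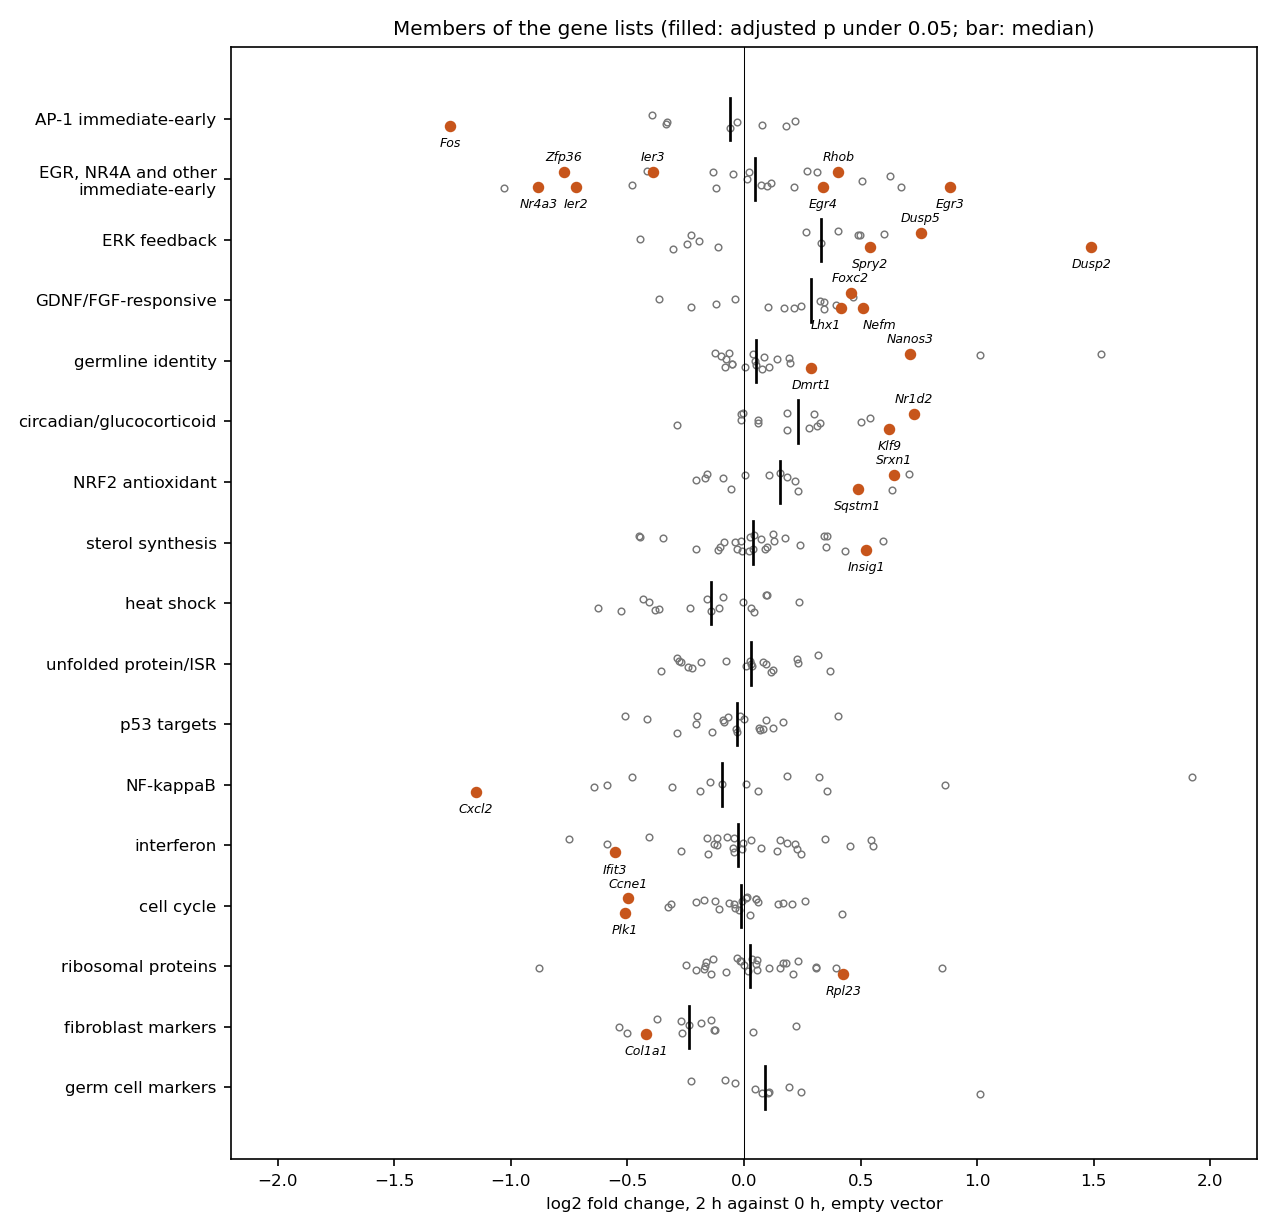
Each point is a tested member of 1 of 17 gene lists, placed by its log2 fold change at 2 h against 0 h in Ctrl cells (x axis), with called members filled and the list median as a bar. The medians run from -0.24 in the fibroblast list to 0.33 in the ERK feedback list, and the all-gene median is 0.0029. Rps6, at -4.81 with 0.311 CPM at 0 h and no call, lies outside the axis.

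Genes that fell were fewer and of mixed kind. Il7, a lymphocyte growth factor gene on chr3:7569994-7613760, had the largest fall by the naming rule. It had 27.1 and 29.5 CPM at 0 h, then 21.2 and 29.8 at 0.5 h, then 11.5 and 17.7 at 1 h, then 6.55 and 7.97 at 2 h. The 2 h libraries were the lowest of the 8, though the naming rule itself required no overlap between 2 h and 0 h. The change was -1.96 (SE 0.236, adjusted p 2.52e-05). Rgs2, an inhibitor of G protein signalling singled out after its values were seen, had 167 CPM in each 0 h library, 138 and 132 at 1 h, then 87.7 and 93.8 at 2 h (-0.88, SE 0.105, adjusted p 2.48e-05). Both calls held with each of the 8 libraries left out.

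At 1 h the largest falls by that rule were Adora2b, Rab3a, Dok1, Mpp3, Pcnx3 and Plk1. Rab3a, a small GTPase gene of regulated secretion, had 28.2 and 25.2 CPM at 0 h, then 12.2 and 17.0 at 1 h and 12.4 in each 2 h library (-0.87 at 1 h, adjusted p 0.0266, and -1.11 at 2 h, adjusted p 0.000802). Dok1, an adaptor downstream of tyrosine kinases, had 32.1 and 34.1 CPM at 0 h, then 31.2 and 31.8 at 0.5 h, then 18.5 and 18.8 at 1 h (-0.83, adjusted p 0.0151). Adora2b, an adenosine receptor gene, fell by 1.03 at 1 h on the log2 scale (adjusted p 0.048), a call lost in 6 of the 8 fits without 1 library (highest adjusted p 0.571). The 1 h calls of Mpp3 and Pcnx3 (adjusted p 0.048 and 0.008) were lost in 6 and 4 of those fits (highest adjusted p 0.466 and 0.166). Gpr171 and Vgll3 fell by 1.41 and 1.18 at 2 h on the log2 scale (adjusted p 0.0181 and 0.0192), and those calls were lost in 4 and 3 of the 8 fits (highest adjusted p 0.304 and 0.234).

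At 0.5 h the 5 called genes were Gm13456, H2afj and AC121802.1, which were higher, and Sh3bp1 and Slc3a2, which were lower. H2afj, a histone H2A variant gene, had 32.2 and 28.6 CPM at 0 h, then 45.3 and 49.6 at 0.5 h, then 32.1 and 33.6 at 1 h (0.64, adjusted p 0.0358). It was high at 0.5 h and back near its start at 1 h, and the call was lost in 5 of the 8 fits without 1 library (highest adjusted p 0.452). Sh3bp1, a Rac-regulating protein gene, had 21.3 and 24.1 CPM at 0 h, then 11.7 and 7.48 at 0.5 h (-1.24, SE 0.195, adjusted p 0.0294). Without replicate 2 of 0.5 h its value was -0.95 and it was not called (adjusted p 0.106). Slc3a2, the heavy chain partner of SLC7A5, had 670 and 726 CPM at 0 h, then 573 and 466 at 0.5 h, then 573 and 552 at 2 h (-0.43 at 0.5 h, adjusted p 0.035). No gene of the AP-1, EGR and NR4A or ERK feedback lists was called at 0.5 h, where 0.0242% of all genes were called. Without replicate 2 of 0.5 h, Fos had a log2 value of -0.0054 at that time, and Egr1 was not called either.

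The mean of the 0.5, 1 and 2 h levels set against 0 h gave 94 calls, 75 higher and 19 lower (0.455%, or 0.363% and 0.092%). Fos (-0.60, SE 0.0761, adjusted p 0.000307), Egr3 (0.62, adjusted p 0.000101), Ndrg1 (0.92, adjusted p 0.000101) and Inhba (0.71, adjusted p 0.000101) were among them. The rule by size also named Lpar6, Rnf125, Arid5a and Wdr45, with log2 rises of 0.91, 0.90, 0.84 and 0.74 (adjusted p 0.0377, 0.011, 0.0336 and 0.0459). The Lpar6 call was lost in 5 of the 8 fits without 1 library (highest adjusted p 0.544). Sertad3, a cofactor of E2F, had 52.3 and 46.2 CPM at 0 h and 24.5 to 41.0 in the 6 later libraries (-0.69, adjusted p 0.0226).

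The Rhox10-ERT2 cells, which have their own 0 h libraries, shared many of the calls. Of the 298 genes called in Ctrl at 2 h, 293 (98.3%) had the same sign in Rhox10-ERT2 cells, against 63.4% of all tested genes. In those cells 663 genes were called at 2 h (3.21%). The 175 genes called in both arms in the same direction were 58.7% of the Ctrl calls and 26.4% of the Rhox10-ERT2 calls. At 1 h 21 genes were shared, 37.5% of 56 and 32.3% of 65 (0.315% of genes tested), and 53 of the 56 had the same sign. Il7, for example, went from 46.7 and 41.2 CPM at 0 h to 10.2 and 10.5 at 2 h in Rhox10-ERT2 cells (-2.09, adjusted p 2.07e-06), and Egr3 from 90.5 and 95.6 to 166 and 158 (0.80, adjusted p 1.98e-06).

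Whether an early change differed between the arms was tested as a difference of changes. Over the mean of 0.5, 1 and 2 h, edgeR called 0 genes (0%), with 1188 at an unadjusted p under 0.05 and 5 called by DESeq2. The difference over 1 and 2 h alone, with all 24 libraries, gave 8 genes (0.0388%). With all 4 libraries of 0.5 h left out, 2 from each arm, 51 of 20362 genes differed over 1 and 2 h (0.25%). At 2 h alone with all libraries 23 did (0.111%). The values below are for 2 h with all libraries unless stated. Fos had 249 and 261 CPM at 0 h, then 132 and 126 at 1 h, then 43.7 and 46.6 at 2 h in Rhox10-ERT2 cells. Its fall there was larger than in Ctrl, by -1.24 on the log2 scale at 2 h (SE 0.139, adjusted p 8.54e-05). Egr1 in Rhox10-ERT2 cells had 695 and 683 CPM at 0 h, then 430 and 413 at 2 h, where Ctrl cells showed no call, and the difference was -0.72 (SE 0.0835, adjusted p 9.77e-05).

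Other members of the early groups differed as well. Jun had 230 and 218 CPM at 0 h, then 64.3 and 64.0 at 2 h in Rhox10-ERT2 cells, a difference of -1.47 from Ctrl (adjusted p 3.12e-06), and it started well above the 88.7 and 92.2 CPM of Ctrl. Dusp1 differed by -1.15 (adjusted p 0.00114). Inhba rose further in Rhox10-ERT2 cells, from 138 and 148 CPM to 797 and 737 at 2 h, a difference of 1.02 (adjusted p 0.000331). Over 1 and 2 h with all libraries, Fos and Jun were called (adjusted p 0.00165 and 0.00309), and Egr1, Dusp1 and Inhba were not (adjusted p 0.0791, 0.171 and 0.121). Zfp36 was called over 1 and 2 h with the 4 libraries of 0.5 h left out (-0.63, adjusted p 0.00233) and not with all libraries (adjusted p 0.566). Fos, Jun, Egr1, Dusp1, Zfp36 and Inhba all had higher 0 h values in the Rhox10-ERT2 arm, and the part of that in the differences was not tested.

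**Figure D4:**
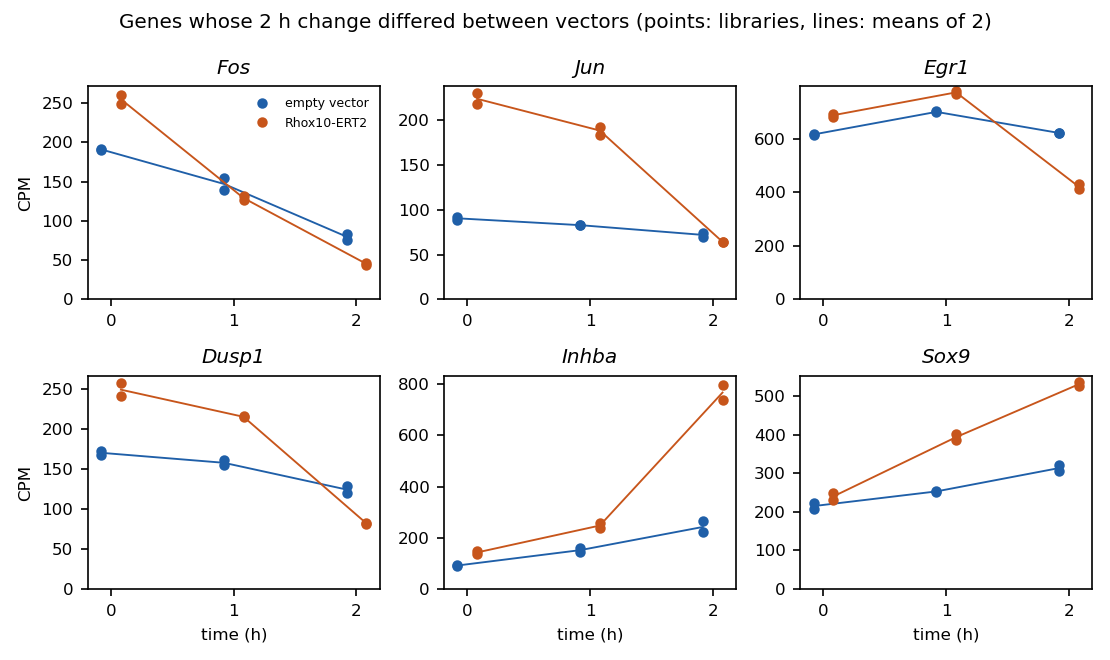
Points give CPM of each library (y axis) at 0, 1 and 2 h (x axis) in Ctrl and Rhox10-ERT2 cells for Fos, Jun, Egr1, Dusp1, Inhba and Sox9, with lines through the means of 2 replicates. At 2 h Fos, Jun, Egr1 and Dusp1 are lower in Rhox10-ERT2 cells than in Ctrl, although their mean 0 h levels were higher. Inhba and Sox9 are higher at 2 h and also had higher mean 0 h levels.

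The early values of Ctrl cells can be set beside their later ones, which use the same 0 h libraries. Fos was at 50.1 and 47.8 CPM at 4 h, then 20.7 and 19.7 at 8 h (-1.96 and -3.24, adjusted p 2.16e-11 and 5.29e-15). Egr1, not called by 2 h, was at 401 and 416 CPM at 4 h, then 204 and 200 at 8 h (-0.60 and -1.61, adjusted p 9.79e-07 and 2.38e-14). Egr3 was at 129 and 142 CPM at 8 h, close to its 126 and 140 at 0 h (0.024, adjusted p 0.919). Inhba was at 518 and 450 CPM at 8 h (2.40, adjusted p 6.71e-14) and Ndrg1 at 102 and 100. Over the 6 Ctrl times, the genes whose mean levels followed Fos most closely among 11966 compared were Mgat5 (r = 0.9981), Rnd3 (0.9961), Lmnb1 (0.9957), Ankrd1 (0.9947) and Phldb2 (0.9934). This is a description over 6 means that share libraries.

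Markers of other cells moved with some of these results. In bulk RNA, fewer cells of a type and less RNA per cell cannot be told apart. The summed CPM of 13 fibroblast markers was 2898 and 2791 at 0 h, then 2956 and 2187 at 0.5 h, then 2722 and 2587 at 1 h, then 2347 and 2500 at 2 h, with no marker at 0. At 2 h 0 of 13 were called higher and 1 lower, Col1a1, which fell by 0.42 on the log2 scale (adjusted p 0.0168, lost in 3 of the 8 fits without 1 library, highest adjusted p 0.226). Over all genes 0.354% were called lower, and the list median was -0.24. In the fit without the 0.5 h libraries, 4 of 13 were called lower (Col1a1, Col1a2, Col3a1 and Fbn1) and 0 higher, against 2.53% of all genes called lower. Tnc, Inhba and Has2 are also made by fibroblasts, and the part of stromal cells in their rises was not tested.

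The other marker lists were low or carried by 1 gene. The 10 Sertoli markers summed to 243.7 and 232.8 CPM at 0 h, then 326.6 and 351 at 2 h, with Amh at 0 in all 8 libraries. Most of that was Sox9, which had 222 and 208 CPM at 0 h, then 305 and 322 at 2 h (0.55, SE 0.0815, adjusted p 0.000416). The 7 endothelial markers summed to 158.4 and 160.3 CPM at 0 h, then 205.5 and 195.2 at 2 h, mostly Flt1 (0.38, adjusted p 0.0394, lost in 6 of the 8 fits without 1 library, highest adjusted p 0.326). The 9 macrophage markers summed to 24.82 to 28.64 CPM with C1qa and C1qc at 0, and the 7 Leydig markers to 9.396 to 17.38 CPM with Hsd3b1, Insl3 and Lhcgr at 0.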

How the data were processed

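The 8 Ctrl libraries at 0, 0.5, 1 and 2 h were read from the table of whole-number counts per gene that the authors deposited for the 24 iSLAM-seq libraries. Polyadenylated RNA was prepared with a 3' end kit, per the labels' protocols, and the submitters' processing notes name limma 3.42.2 and the mm10 build. The aligner and counter are not given in the sources used here. Of 55536 gene identifiers, 55450 had a symbol.

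Counts were fitted with edgeR 4.0.16 (quasi-likelihood test) under R 4.3.3, with TMM scaling, the filterByExpr filter and 12 group means over all 24 libraries. A Benjamini-Hochberg adjusted p under 0.05 was a call, and each SE was taken from the log2 fold change and its F statistic. CPM used TMM-scaled library sizes. Genes were named by lists, and by size of change among called genes averaging 5 CPM or more whose compared libraries did not overlap. Of all genes at that level, 31.4%, 44.3% and 50.9% did not overlap at 0.5, 1 and 2 h, and 10.4% for the mean. Further genes are marked as chosen after their values were seen. The members and lists were chosen with earlier results of these data known. Alternatives were another scaling, no filter, DESeq2 1.42.0, fewer libraries, each library left out, and a replicate block. Counts were simulated for 19938 genes with no discordant library. The changed genes had at least 5 CPM and changed alike at 0.5, 1 and 2 h. The 2 h comparison recovered 80 of 100 genes changed by 1 on the log2 scale and 100 of 100 changed by 2. It made 5 false calls, against 3 at 0.5 h, 10 at 1 h, 9 for the mean and 15 for the difference between vectors. For genes changed by 1, the 1 h comparison recovered 82 of 100 and the difference between vectors 72 of 100. The simulated spread was estimated from all 24 libraries. These figures do not cover genes under 5 CPM or the effect of the 0.5 h pair. Promoter sequences are from RefSeq (GRCm38.p6). Figures were drawn with Python 3.11.15 and matplotlib 3.10.9. An item withheld for evaluation is not reported here.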

Additional observations from a re-analysis of the deposited data

Results flagged for a closer look

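The early change from 0 h differed between Rhox10-ERT2 and Ctrl cells for several genes described above, by a test of the difference itself with edgeR. The values are log2 changes in Rhox10-ERT2 cells minus those in Ctrl cells. They come from alternatives, and over all 24 libraries and the 3 times together no gene was called. With all 24 libraries, the difference over 1 and 2 h was called for 8 genes, with Fos, Jun and Sox9 among them (adjusted p 0.00165, 0.00309 and 0.0486) and Egr1, Dleu2 and Zfp36 not (adjusted p 0.0791, 0.141 and 0.566).

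Over 1 and 2 h, with the 4 libraries of 0.5 h left out, the AP-1 genes Fos and Jun differed by -0.917 and -0.788. Dusp1 differed by -0.623, Dusp6 by -0.264, Egr1 by -0.362, Zfp36 by -0.628, Btg2 by -0.512 and Dleu2 by -1.07. Inhba and Sox9 differed the other way, by 0.554 and 0.545.

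At 2 h alone with all 24 libraries, a comparison chosen after seeing the data, Jun differed by -1.47, Fos by -1.24, Dusp1 by -1.15, Btg2 by -0.952 and Egr1 by -0.721. Inhba differed by 1.02, Sox9 by 0.599 and the antioxidant gene Srxn1 by 0.441.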

How the results depend on the processing

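The counts of calls moved with the filter, the libraries and the tool. The main counts were 5 at 0.5 h, 56 at 1 h, 298 at 2 h, 94 for the mean and 0 for the difference between vectors. With no filter on low counts, 730 genes were called at 0.5 h, 105 at 1 h, 400 at 2 h, 258 for the mean and 7 for the difference. With the 8 early Ctrl libraries alone the counts were 0 at 0.5 h, 0 at 1 h, 26 at 2 h and 0 for the mean, and with the 12 Ctrl libraries 0, 3, 94 and 3. With both 0.5 h libraries out they were 313 at 1 h, 1176 at 2 h, 1046 for the mean and, with the 0.5 h libraries of both arms out, 51 for the difference. With all libraries the difference gave 8 over 1 and 2 h and 23 at 2 h alone, both chosen after seeing the data. DESeq2 called 52 at 0.5 h, 167 for the mean and 5 for the difference. A change of at least 2-fold left 1, 18, 74 and 13. The cause was not tested.

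Leaving out 1 library gave 0 to 4284 calls at 0.5 h, 9 to 337 at 1 h, 102 to 1195 at 2 h, 8 to 2134 for the mean and 0 to 641 for the difference. The highest counts came without a library of the 0.5 h pair, and in such a fit a lone library is assumed to vary like the other groups.

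Replicate numbers did not pair the libraries (correlations of deviations from -0.0824 to 0.0532). With the replicate block the counts were 4, 62, 318, 95 and 0.

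Of 73 called results for named genes, 22 held in every setting, among them Fos, Egr3, Dusp2, Dusp5, Ndrg1, Inhba and Il7 at 2 h. Many of the named genes were picked for large changes or small p-values in these same libraries. That their calls held is therefore no separate support for them. Uncalled values changed sign at 0.5 h with 1 library of the pair left out, ranging from -2.65 to 0.397 for Rhox10, -0.0441 to 0.241 for Hspa5, -0.637 to 0.0472 for Dazl, -2.27 to 0.157 for Cd14, -0.748 to 0.0714 for Junb and -2.1 to 0.0318 for Nr4a1. With each library left out in turn, Cyp11a1 ranged from -2.29 to 5.21 at 0.5 h and Star from -0.157 to 0.59 at 2 h. With 2 libraries a time, the direction of these changes could not be resolved. Some genes of a few CPM with larger changes, such as Kcnk10, were called.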
